A study of Mus musculus with 9 samples.

Results

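The comparison described here set 3 arrays of pro-B cells that kept a truncated EBF1 protein, EBF1ΔC, against 3 arrays of Mock cells, in which Ebf1 was deleted and not replaced. These are 6 of the 9 arrays of a study of mouse pro-B cells, chosen by their titles. The question, as the labels state it, was what follows when the endogenous Ebf1 gene is deleted and replaced by a retroviral copy. The remaining 3 arrays carried the full-length protein, EBF1wt, and were used to test where EBF1ΔC cells differed from them.

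Every group, Mock included, had the genotype Ebf1fl/fl;RERTCre on a C57Bl/6 background. The cells were A-MuLV transformed pro-B cells, which are B-cell precursors immortalised by the Abelson leukaemia virus, and the labels describe every sample as treated with tamoxifen, given as 2 µM 4-hydroxy-tamoxifen (4-OHT), although 1 label of EBF1wt replicate 3 leaves the 4-OHT out. RERTCre is a Cre recombinase fused to an oestrogen receptor domain, and 4-OHT turns it on so that the loxP-flanked Ebf1 alleles are deleted. EBF1ΔC cells received the retroviral construct pmys-EBF1ΔC-IRES-GFP, were given 4-OHT 24 h later, were sorted as GFP+ 5 days after that, and were used more than 2 weeks after the sort. EBF1wt cells went through the same steps with pmys-EBF1wt-IRES-GFP. Mock cells were mock-transduced and harvested 4 days after 4-OHT, at a time when no cells had yet been seen to die, and no sort is described for them. EBF1ΔC is expressed from a retroviral construct and not from the Ebf1 gene, and the labels name no end point of the truncation. They do not say whether the 3 replicates of a group came from separate cultures, and if they did not, each p-value reflects only how much these samples varied.

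EBF1 is a transcription factor that commits lymphoid progenitors to the B lineage, together with E2A, FOXO1 and PAX5. It binds DNA as a dimer through an amino-terminal domain. Its carboxy-terminal domain was first described as an activation domain. Known targets include the genes of the surrogate light chain (Igll1, Vpreb1) and of the signalling chains of the antigen receptor (Cd79a, Cd79b). Together with the immunoglobulin heavy chain, these chains form the pre-B cell receptor.

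The 60-base probes of Igll1, which rose, and of H2-Aa, which fell, are shown first, since the results below rest on their brightness. Igll1 was read by a probe at mm9 chr16:16861104-16861163 and H2-Aa by a probe at mm9 chr17:34421285-34421344, both on the minus strand.
Igll1 probe: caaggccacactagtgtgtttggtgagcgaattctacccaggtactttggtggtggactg
H2-Aa probe: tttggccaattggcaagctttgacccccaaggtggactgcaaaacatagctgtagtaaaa

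EBF1 is known to bind a palindrome whose core is CCCNNGGG. A longer form, with T before and A after this core, was searched in the 250 bases before and 50 bases after the transcription start of each gene in RefSeq promoters (GRCm38.p6), where it reads the same on both strands. This longer form was found in 12 of the 543 promoters of genes higher in EBF1ΔC than in Mock cells (2.21%), in 17 of 992 of the lower genes (1.71%) and in 83 of 7843 of the genes not called (1.06%). Over all 27025 genes with a promoter it was found in 287 (1.06%). The core CCCNNGGG alone, which the longer form contains, was found in 25.6%, 23.5% and 19.8% of the same 3 sets and in 15.4% of all. A match describes letters in a window and shows no binding. The stretches below are those of Foxo1, which was higher in EBF1ΔC cells, and of Cd22 and Gimap6, which were lower, with the match in capitals. Igll1 held the shorter core in its window, and that match is in capitals too.
Foxo1, chr3:52268200-52268299, plus strand: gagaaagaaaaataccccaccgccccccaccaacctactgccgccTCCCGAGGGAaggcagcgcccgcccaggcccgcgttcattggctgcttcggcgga
Cd22, chr7:30879029-30879128, minus strand: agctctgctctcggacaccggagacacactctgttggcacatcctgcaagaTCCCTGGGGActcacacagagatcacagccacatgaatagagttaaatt
Gimap6, chr6:48708383-48708482, minus strand: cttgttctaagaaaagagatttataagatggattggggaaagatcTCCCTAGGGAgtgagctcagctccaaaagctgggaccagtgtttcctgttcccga
Igll1, chr16:16864136-16864235, minus strand: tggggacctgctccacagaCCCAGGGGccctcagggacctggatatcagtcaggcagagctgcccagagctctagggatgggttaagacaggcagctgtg

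The Cy3 label was the single colour read from total RNA, and no spot was saturated on any array. Between 54.1% and 56.7% of spots were well above background on the Mock arrays, and between 51.3% and 53.3% on the EBF1ΔC arrays. Values are given as log2 signal, the log2 of the processed spot intensity relative to the 75th percentile of its array, so that 0 is the signal of a gene brighter than 75% of spots. A difference of 1 is 2-fold. The signal of a probe also depends on its sequence, so levels are compared between samples and not between genes. All 13 pro-B markers listed for the check of cell identity were above background in every group. The Mock arrays lay on slides and a scan day of their own, and Mock cells also differed in culture time, sorting and the presence of a retroviral construct, so that these and EBF1ΔC cannot be told apart. In RNA from a bulk culture, fewer cells of a type and less RNA per cell cannot be told apart either.

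Of 11902 genes tested, 2110 (17.7%) passed an adjusted p under 0.05 with a change of at least 2-fold between EBF1ΔC and Mock cells. Of these, 750 (6.3%) were higher and 1360 (11.4%) lower in EBF1ΔC cells, so that 35.5% of the called genes were higher. The split depends on the scaling. With arrays scaled to their median, 3063 genes were higher and 810 lower, 79.1% of the calls being higher, and the median difference of all genes moved from 0.11 to 0.65. A list median printed below is read against 0.11, the median of all genes. Counts of called members are likewise read against the shares over all genes, 6.3% higher and 11.4% lower. A list near these shares does not stand out from all genes. With no minimum fold, 7644 genes (64.2%) passed the adjusted p. As many as 313 genes were well above background on all 3 Mock arrays and on no EBF1ΔC array, and 110 the other way round. A gene was tested if it was above background in 1 group alone, so the filter favours genes bright in some group. The scatter plot of group means shows the spread of both sets of calls. Of the genes named below, Adm, Aldoc, Blk, Cd200, Cd28, Cd3d, Cd6, Col26a1, Dclre1c, Eno2, Epor, Gbp6, Hba-a1, Hba-a2, Hbb-y, Hk3, Hoxa7, Il6st, Lig4, Maff, Mx2, Nkg7, Nr4a2, Oas3, Oasl2, Prf1, Prim2, Rasgrp3, S100a4, Slamf1, Slc3a2, Tet2, Traf1, Ttk, Tyms and Xrcc6 lost their calls with normexp and with the authors' values, where they lay under 2-fold. Nars lost its call with normexp, and Cd44, Iigp1, Ltb4r1 and Sdc1 with the authors' values. Median scaling ended the calls of Adm, Batf, Birc3, Casp9, Ccnd2, Cdkn2b, Dclre1c, Ell2, Fkbp11, Gimap6, Hba-a2, Ifngr1, Il6st, Mx2, Nfkb2, Nkg7, S100a4, Slamf1, Stat3 and Ticam1.

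**Figure D1:**
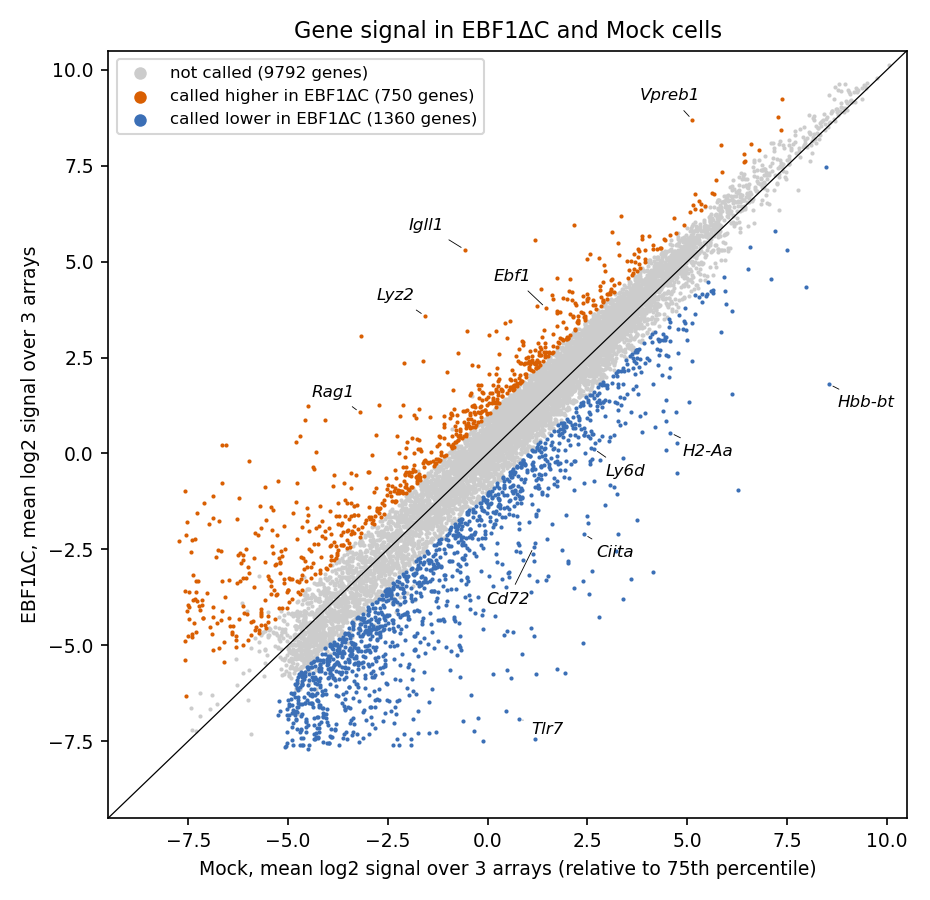
Mean log2 signal of each of 11902 genes over 3 Mock arrays (x axis) and 3 EBF1ΔC arrays (y axis), relative to the 75th percentile of the array. Orange points are the 750 genes called higher in EBF1ΔC cells, blue points the 1360 called lower, and the line marks equal signal. Igll1, Vpreb1, Rag1 and Lyz2 lie above the line, and Hbb-bt, H2-Aa, Ciita and Tlr7 lie below it.

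The targeted gene was examined first. On the Ebf1 probe at mm9 chr11:44818365-44818424, the Mock arrays read 1.73, 1.47 and 1.17 and the EBF1ΔC arrays 3.81, 3.74 and 3.85. Every EBF1ΔC array lay above every Mock array, with a difference of 2.35 (SE 0.15, adjusted p = 5e-06). A second Ebf1 probe at chr11:44462618-44462677 read -3.03, -2.32 and -2.42 on the Mock arrays and -7.01, -7.06 and -5.33 on the EBF1ΔC arrays, where it was well above background on none. The 2 probes thus moved in opposite directions, and their mean was lower in EBF1ΔC cells by 0.76. Which exons they cover, and whether either lies in the deleted or the retroviral sequence, was not tested, so neither alone measures the loss of the endogenous gene. The paralogs Ebf2, Ebf3 and Ebf4 and the zinc-finger partners Zfp423 and Zfp521 were on the array but not above background on all 3 arrays of any group.

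All 4 surrogate light chain genes of the list rose in EBF1ΔC cells. This chain pairs with the immunoglobulin heavy chain before light-chain genes are rearranged and lets a precursor test its heavy chain. Igll1, which encodes its λ5 component, read -0.29, -0.64 and -0.80 on the Mock arrays and 5.24, 5.34 and 5.37 on the EBF1ΔC arrays. All EBF1ΔC arrays lay far above all Mock arrays, with a difference of 5.89 (SE 0.12, 59.3-fold, adjusted p = 1.8e-08). A second Igll1 probe gave a smaller difference of 2.97 in the same direction. Vpreb1, the other component, read 5.13, 5.21 and 5.02 against 8.74, 8.78 and 8.60, a difference of 3.59 (SE 0.08). Vpreb2, a close copy of Vpreb1 whose RNA can bind the same probes, rose from 1.36, 1.12 and 1.09 to 5.49, 5.64 and 5.59. Vpreb3, a chaperone-like relative, read 7.34, 7.25 and 7.23 in Mock cells and 8.87, 8.88 and 8.57 in EBF1ΔC cells.

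The signalling part of the pre-B cell receptor showed another pattern. Over the list of 25 surrogate light chain and signalling genes, all tested, 4 were higher, namely the 4 just given, 6 were lower and the median difference was 0.66. The receptor chains and the proximal kinase and adaptor stayed under 2-fold: the differences were 0.94 for Cd79a, 0.96 for Cd79b, 0.76 for the kinase Syk and 0.66 for the adaptor Blnk. Scaling to the median carried all 4 past 2-fold, and Cd79a also passed without Mock replicate 1, with 1.09.

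The 6 lower genes of that list encode co-receptors, a kinase, a phosphatase and other regulators of antigen-receptor signals. Cd22, an inhibitory lectin of B cells, read 4.64, 4.66 and 4.89 on the Mock arrays and 1.04, 1.16 and 1.05 on the EBF1ΔC arrays, 12.5-fold lower (difference -3.65, SE 0.27). Cd72, another inhibitory co-receptor, went from 1.06, 1.19 and 1.22 to -2.27, -2.22 and -2.81. The Src-family kinase Blk read -2.93, -3.10 and -2.91 in Mock cells and was not well above background on any EBF1ΔC array, which makes it at least 5.32-fold lower. Such bounds set the bright group against the lowest signal well above background on each array. They hold for the scaling used here and not for normexp or the authors' values, where these genes differed less. The Ras activator Rasgrp3 was at least 6.14-fold lower. Bank1 (-2.85) and the phosphatase gene Ptpn6 (-1.20) complete the 6 and were named after their values were seen. Neither Blk nor Rasgrp3 kept its call under normexp background correction or in the authors' values.

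**Figure D2:**
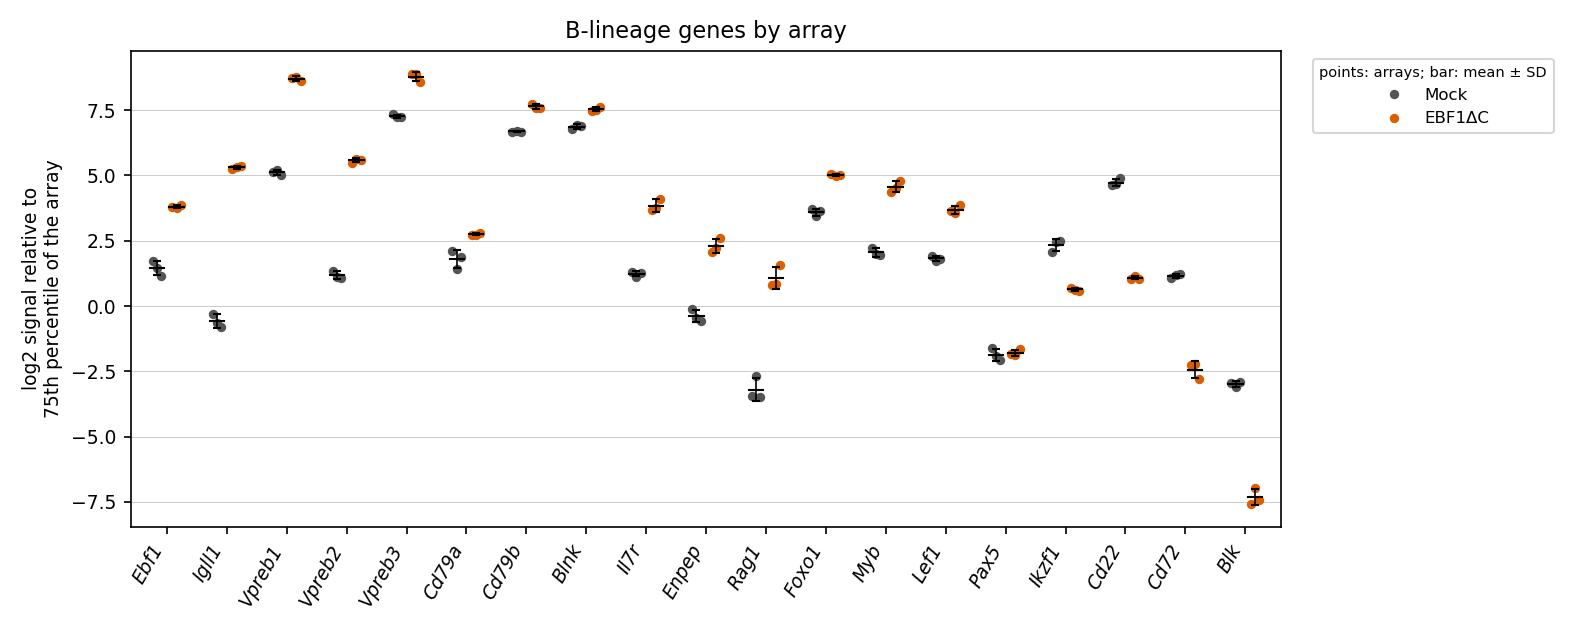
Log2 signal of 19 B-lineage genes on each of the 3 Mock (grey) and 3 EBF1ΔC (orange) arrays, relative to the 75th percentile of the array. Points are arrays, and the bars give mean ± SD. The groups do not overlap for Igll1, Vpreb1, Il7r or Cd22, whereas the arrays of both groups mix for Pax5.

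Among 26 B-lineage transcription factors, all tested, 6 were higher, 3 lower and 17 not called, with a median of 0.38. Over all genes 6.3% were higher and 11.4% lower, so the lower count was near the share of all genes. The higher ones were Ebf1 itself and 5 regulators of early lymphoid cells. Ebf1 is the gene deleted and replaced by design, and its difference was -0.76 with the mean of its probes. Erg, an ETS factor, read -2.42, -1.90 and -2.26 in Mock cells and 1.04, 0.98 and 0.88 in EBF1ΔC cells, a difference of 3.16 (SE 0.52). Myb rose by 2.51 and Lef1 by 1.86. One of the 4 Myb probes did not follow, at -0.14. Foxo1, which acts with EBF1 in early B cells and activates the Rag genes, read 3.71, 3.45 and 3.62 against 5.04, 5.0 and 5.0, a difference of 1.42 (SE 0.08). Sox4 was the fifth, at 1.65, and was named after its value was seen.

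The 3 lower factors were Bcl6, Ikzf1 and Pou2f2. Bcl6, a repressor of germinal-centre and pre-B cells, fell from 1.59, 1.76 and 1.83 to -0.72, -0.45 and -0.98. Ikzf1, which encodes Ikaros, fell by 1.71 (SE 0.12), and Pou2f2, named after its value was seen, by 1.45. Pax5, the B-lineage commitment factor, read -1.62, -1.92 and -2.08 against -1.83, -1.88 and -1.66, so that the groups overlapped (difference 0.08, adjusted p = 0.63). Irf4 differed by 0.16 (adjusted p = 0.38) and Pou2af1 by -0.01 (adjusted p = 0.96), and the order of the groups for Pax5 and Pou2af1 turned when single arrays were left out. Irf8 (-0.55), Spib (-0.43), Ikzf3 (-0.86) and Id2 (0.59) passed the adjusted p but not the 2-fold limit. One Ikzf3 probe stood apart at -3.63. Scaling to the median turned the sign of Spib to 0.11 and of Pou2af1 to 0.54, and took Id2 past 2-fold.

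Rag1, the recombinase that opens antigen-receptor genes for rearrangement, was raised 19.4-fold. Its probe read -3.43, -2.70 and -3.48 in Mock cells and 0.82, 0.84 and 1.56 in EBF1ΔC cells, a difference of 4.28 (SE 0.47, adjusted p = 0.00011), and 2 other Rag1 probes gave 4.19 and 2.67. Rag2 was not among the genes tested. Of the 12 recombination and end-joining genes tested, 3 were higher (Rag1, Xrcc6 at 1.15 and Lig4 at 1.04), and Dclre1c, which encodes the hairpin-opening nuclease Artemis, was lower by 1.12. Dntt, the polymerase that adds untemplated bases to joins, read 1.11, 1.34 and 0.98 against 1.68, 1.57 and 2.82. Its difference of 0.88 stayed under 2-fold and passed it without EBF1ΔC replicate 1 (1.05) or replicate 2 (1.11). Lig4 fell short without EBF1ΔC replicate 3, at 0.98, and Dclre1c without EBF1ΔC replicate 2, at -0.98, or Mock replicate 3, at -0.99. With normexp and with the authors' values 1 member was higher and 0 lower by limma, while median scaling gave 8 higher and 0 lower.

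Surface receptors of pro-B cells divided. Il7r, the receptor chain for the cytokine on which early B cells depend, read 1.30, 1.13 and 1.28 in Mock cells and 3.69, 3.74 and 4.12 in EBF1ΔC cells (difference 2.61, SE 0.13). Enpep, which encodes the precursor antigen BP-1, rose from -0.13, -0.46 and -0.58 to 2.06, 2.22 and 2.62. Bst1 (1.87) and Cd24a (1.04), named after their values were seen, were the other higher members. In the other direction, Il2ra, the α chain of the IL-2 receptor, was at least 35.5-fold lower and Cd200 was at least 3.87-fold lower. The Cd200 call was lost with normexp, at -0.55, and with the authors' values, at -0.45. Ly6d, a marker of B-committed lymphoid progenitors, fell from 2.56, 2.63 and 2.80 to 0.15, 0.31 and -0.11. Of 15 members tested, 4 were thus higher and 4 lower. The median of this list lay 0.19 above that of all genes, but 0.04 and 0.06 below it with normexp and with the authors' values.

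Genes of MHC class II presentation fell together. Class II molecules present peptides to helper T cells and, in the B lineage, mark later stages than the pro-B cell. Of 16 members, 11 were lower in EBF1ΔC cells (11.4% of all genes were lower), with a median of -2.66, and 0 were higher by limma (1 at an unadjusted p under 0.05). Ciita, the master regulator of class II transcription, read 2.30, 2.45 and 2.51 on the Mock arrays and -2.36, -2.21 and -1.75 on the EBF1ΔC arrays, 23.0-fold lower (difference -4.52, SE 0.16, adjusted p = 3.5e-07). H2-Aa, which encodes a class II α chain, read 4.57, 4.49 and 4.66 against 0.09, 0.75 and 0.78. All EBF1ΔC arrays lay more than 3 log2 units below the lowest Mock array. H2-Eb1 was lower by 4.36, the invariant chain gene Cd74 by 3.63, and the peptide-loading genes H2-DMa and H2-DMb2 by 3.37 and 3.74.

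The 5 uncalled members of that list were the RFX factors Rfx5 (-0.03), Rfxap (0.22) and Rfxank (0.16), which bind class II promoters, and the processing enzymes Ctss (-0.80) and Ifi30 (-0.60). They were named after their values were seen. MHC class I and immunoproteasome genes gave no call: of 15 tested, 0 passed limma's adjusted p with the 2-fold limit in either direction. At an unadjusted p under 0.05, 7 were higher and 2 lower, and under median scaling 3 were called higher. The class I heavy chains H2-K1 (8.20, 8.16 and 8.16 against 8.31, 8.37 and 8.30) and H2-D1 (7.45, 7.30 and 7.43 against 7.54, 7.52 and 7.57) differed by 0.15 each. Quantile scaling turned both signs, to -0.02 and -0.16.

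Of 19 mature B-cell genes tested, 10 were lower and 1 higher, with a median of -1.60. On all Mock arrays 19 were above background, and on all EBF1ΔC arrays 16. Some thus entered the test only through the Mock arrays, so that the filter in part set the lower count and the median. Fcer2a, the low-affinity IgE receptor CD23, read 0.35, 0.37 and 0.66 in Mock cells and was not well above background on any EBF1ΔC array, at least 57.7-fold lower. The log2 difference of Fcer2a was -3.08 with normexp and -2.83 with the authors' values, short of that bound. Cd40, the receptor for T-cell help, fell by 3.27, Fcmr, the IgM receptor, by 3.56, and Zbtb32, which was above background on 2 EBF1ΔC arrays, by 3.75. Without EBF1ΔC replicate 3 the difference of Zbtb32 was -2.88. Ccr6 read 1.40, 1.51 and 1.64 against -3.18, -3.28 and -3.14. The higher member was Plac8, at 1.16, named after its value was seen. The summed signal of the 24 listed genes did not follow the count: it was 252 to 263 times the 75th percentile on the Mock arrays and 280 to 317 times on the EBF1ΔC arrays.

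Among plasma-cell and secretory genes, 5 of 12 tested were lower and 1 higher, with a median of -0.74, while median scaling gave 3 lower and 3 higher. Jchain, which links IgM and IgA multimers, read 2.72, 2.80 and 2.84 against -4.20, -3.96 and -4.63, a difference of -7.05 (SE 0.23). Derl3, which takes part in the clearance of misfolded secretory proteins, fell by 4.57 and Fkbp11 by 1.20. Bhlha15 fell by 3.43 on the brighter probe, whereas a second probe gave -0.32. The syndecan gene Sdc1, a plasma-cell surface marker that pre-B cells also carry, rose by 1.15. Prdm1 and Tnfrsf17 were not among the genes tested. Ell2 (-1.04) dropped below 2-fold without Mock replicate 1, at -0.93.

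**Figure D3:**
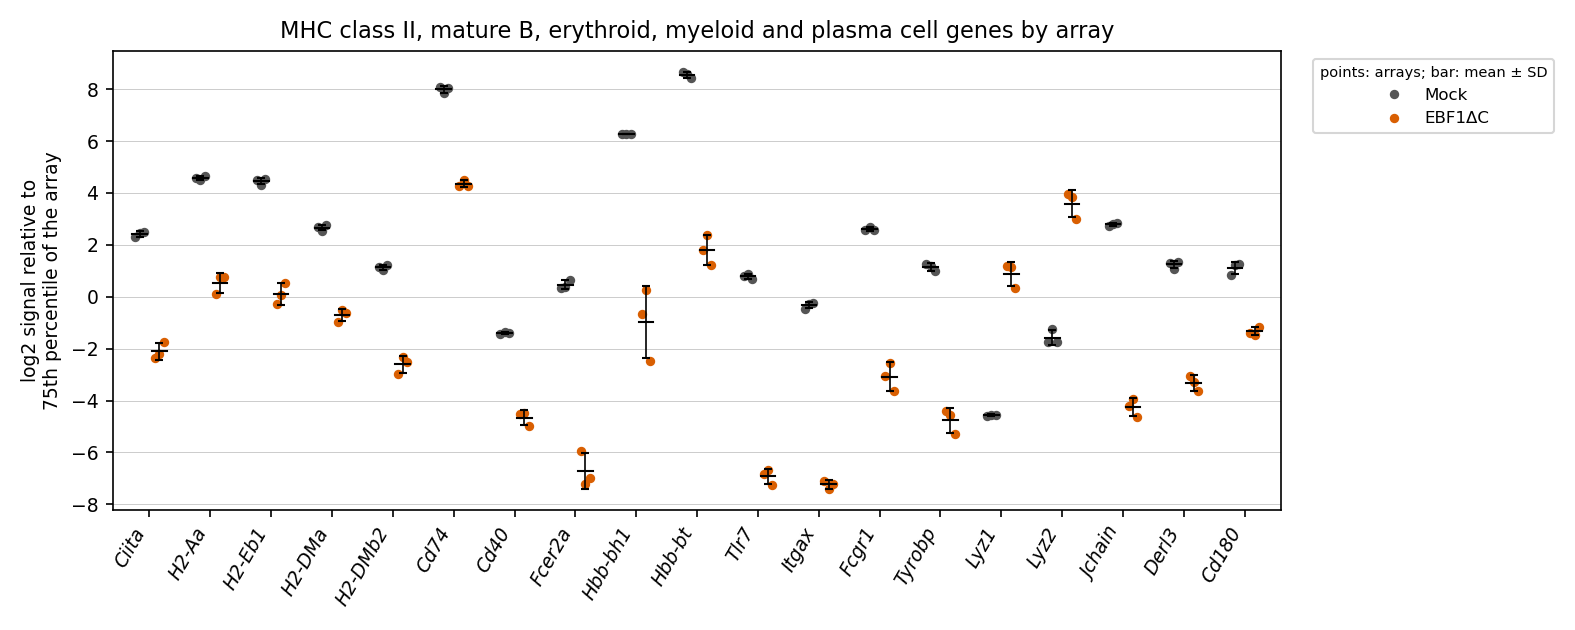
Log2 signal of MHC class II, mature B-cell, globin, myeloid and plasma-cell genes on each of the 3 Mock (grey) and 3 EBF1ΔC (orange) arrays, relative to the 75th percentile of the array. Points are arrays, and the bars give mean ± SD. Lyz1 and Lyz2 are higher on the EBF1ΔC arrays, and the remaining genes are lower there.

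Globin signals fell in EBF1ΔC cells. Hbb-bt, an adult β-globin gene, read 8.66, 8.58 and 8.43 on the Mock arrays and 1.81, 2.39 and 1.22 on the EBF1ΔC arrays (difference -6.75, SE 0.29, 108-fold lower). Hbb-bh1, an embryonic β-like globin gene, read 6.28, 6.29 and 6.28 against -0.67, 0.26 and -2.47. The Mock arrays of this gene lay close together and the EBF1ΔC arrays spread widely, without overlap, the difference lying between -7.85 and -6.49 as single arrays were left out. Epor, the erythropoietin receptor, fell by 2.35 and Hba-a1 fell by 2.19, each above background on 1 EBF1ΔC array, Hba-a2 fell by 1.32, and Hbb-y was at least 2.17-fold lower. All 6 erythroid and megakaryocytic genes tested were lower (11.4% of all genes were lower). Of the listed genes, 6 were above background on all Mock arrays, 3 on all EBF1ΔC arrays and 2 on all EBF1wt arrays. Some thus entered the test only through the Mock arrays, so that the filter in part set this count. The summed signal of the 18 listed genes on the array was 423 to 484 times the 75th percentile in Mock cells and 2.74 to 6.70 times in EBF1ΔC cells. Gata1, Klf1 and Alas2, defining erythroid genes, were not among the genes tested. Hba-a1 and Hba-a2, and the β-globin genes, are near-identical copies whose signals cannot be separated with certainty. With the authors' values 2 of the 6 were called lower. The part of other cells in these values was not tested.

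Myeloid genes moved in both directions. The lysozyme genes Lyz1 and Lyz2, near-identical neighbours, rose in EBF1ΔC cells. Lyz2 read -1.73, -1.25 and -1.74 in Mock cells and 3.94, 3.84 and 2.98 in EBF1ΔC cells (difference 5.16, SE 0.63), and Lyz1 read -4.61, -4.54 and -4.55 against 1.17, 1.14 and 0.34. The other higher member was Cebpb, a transcription factor of myeloid cells, at 4.54, named after its value was seen. In contrast, 8 of 13 tested members were lower. Itgax, which encodes CD11c, was at least 33.4-fold lower, the adaptor gene Tyrobp, above background on 2 EBF1ΔC arrays, fell by 5.92, the IgG receptor gene Fcgr1 by 5.68 and Cd300lf by 4.70. Of 27 listed genes on the array, 12 were above background on all Mock arrays and 11 on all EBF1ΔC arrays. Their summed signal was 32.3 to 34.2 in Mock and 22.1 to 31.5 in EBF1ΔC cells, in units of the 75th percentile. Mpo, Elane, Itgam, S100a8, S100a9 and Csf3r, which define granulocytes and macrophages, were not among the genes tested.

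T, NK and innate lymphoid genes had 13 of 30 members tested. Of these 6 were lower. On all Mock arrays 13 members were above background, and on all EBF1ΔC arrays 8. Some thus entered the test only through the Mock arrays, so that the filter in part set the lower count. Cd5, an inhibitory receptor of T and B cells, fell from -0.84, -0.59 and -0.64 to -4.55, -5.16 and -4.57. Cd6 fell by 1.60, Cd3d by 3.49 (above background on 1 EBF1ΔC array, and by 2.83 without EBF1ΔC replicate 3) and Prf1 by 1.99 (above background on 2), and Cd28 and Nkg7 were at least 3.36-fold and 2.28-fold lower. The signalling genes Zap70 (1.27) and Lck (1.04) were among the 3 higher members and were named after their values were seen. Cd4, Cd8a, Cd3g, Thy1, Ptcra, Gata3 and Tcf7, most of them T-cell genes, were not among the genes tested. The summed signal of the list was 8.25 to 9.22 in Mock and 12.5 to 14.1 in EBF1ΔC cells. With the authors' values 1 gene was higher and 1 lower, and with quantile scaling the median of this list lay 0.07 above that of all genes instead of 0.50 below.

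Among 10 stem and progenitor genes tested, Ly6a, which encodes Sca-1, fell from 4.25, 4.11 and 4.22 to 0.68, 0.46 and 0.95. Lmo2 fell by 2.05, and Slamf1, above background on 2 Mock arrays, was at least 1.37-fold lower. Hoxa7 was the higher member, at -5.02, -4.84 and -4.35 against -3.71, -4.09 and -2.28. The Hoxa7 call depended on single arrays and was lost without EBF1ΔC replicate 3 (0.84), Mock replicate 1 (1.24) or Mock replicate 2 (1.32). Of 16 stromal and endothelial genes, 4 were tested and Sparc, a matrix protein gene, was at least 9.92-fold higher. Col1a1, Col3a1, Pdgfra and Cdh5 were not among the genes tested.

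Receptors for danger signals and cytokines included lower genes whose balance depended on the scaling. Tlr7, the receptor for single-stranded RNA, read 0.82, 0.86 and 0.68 in Mock cells and was not well above background on any EBF1ΔC array, at least 72.4-fold lower. Its log2 difference was -3.64 with normexp and -3.50 with the authors' values, short of that bound. Cd180, a Toll-like receptor relative of B cells, fell by 2.43 and the adaptor gene Ticam1 by 1.18, so that 3 of 14 Toll-like receptor genes were lower and 0 higher by limma (3 at an unadjusted p under 0.05). Of 24 cytokine receptor and JAK-STAT genes, 6 were lower and 0 higher by limma at the 2-fold limit (4 at an unadjusted p under 0.05). Il4ra read 2.45, 2.36 and 2.42 against -0.91, -0.69 and -0.73, Il21r fell by 1.75, and the feedback inhibitor Socs1 fell by 1.63. Stat3 (-1.06), Il6st (-1.08) and Ifngr1 (-1.05) lay close to the limit, and Ifngr1 missed it without Mock replicate 3, at -0.99. Scaling to the median ended the calls of these 3 and of Ticam1, and gave 3 higher and 2 lower Toll-like receptor genes and 3 higher and 3 lower cytokine receptor genes.

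Migration receptors included the lowest difference among genes measured on every array of both groups. Ackr2, a scavenger of inflammatory chemokines, read 2.35, 2.45 and 2.36 against -5.07, -5.12 and -4.64, a difference of -7.33 (SE 0.13, adjusted p = 1.2e-08). Gpr183, the oxysterol receptor that guides activated B cells, read 4.13, 4.18 and 4.12 against -2.88, -2.81 and -3.61. Ccr2 fell by 4.45 and Ltb4r1, above background on 1 EBF1ΔC array, by 3.52. Cxcr4, which holds precursors near the stroma of the marrow, moved the other way, from -0.64, -0.94 and -1.0 to 1.79, 1.70 and 1.47. The sphingosine phosphate receptors S1pr2 (2.36) and S1pr4 (1.64), named after their values were seen, were also higher. In all, 3 of 14 were higher and 6 lower, and 4 and 6 with median scaling.

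Of 18 adhesion genes, 5 were lower and Cd44, the hyaluronan receptor, was higher by 1.47. On all Mock arrays 18 were above background and on all EBF1ΔC arrays 14, so that the filter in part set the lower count. Itgb7 read 2.79, 2.79 and 3.0 against 0.33, 0.61 and 0.43, and Itgal fell by 1.81. The Gimap genes encode GTPases of lymphocyte survival. Gimap3 fell from 2.54, 2.37 and 2.56 to -1.25, -1.28 and -2.35, Gimap7 by 3.65 and Gimap6 by 1.48. Gimap4, above background on 2 EBF1ΔC arrays, went from 2.44, 2.63 and 2.57 to -3.09, -2.79 and -5.10, a difference of -6.21 that was -5.49 without EBF1ΔC replicate 3. In all, 4 of 7 Gimap genes tested were lower. Gimap1 (-0.84), Gimap5 (-0.93) and Gimap9 (-0.12), named after their values were seen, were not called, and 6 of the 7 were called lower under quantile scaling.

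Genes of the NF-kB pathway had 5 of 22 members lower and 0 higher by limma (4 at an unadjusted p under 0.05). Bcl3, a nuclear IκB protein, read 3.12, 3.08 and 3.27 in Mock cells and -0.80, -0.62 and -1.24 in EBF1ΔC cells (difference -4.04, SE 0.15). Traf1, above background on 2 EBF1ΔC arrays, fell by 3.28, Relb by 1.66 and Nfkb2 by 1.41. Among 21 immediate early and AP-1 genes, 5 were lower and 4 higher. Egr2 read 1.47, 1.53 and 1.38 against -3.30, -3.41 and -3.20. Ier3 fell by 2.82, Maff by 1.98, Nr4a2 by 1.69 and Batf by 1.50. Dusp1, a MAP kinase phosphatase, rose by 1.56, and Atf3 (1.27), Klf4 (1.16) and Dusp2 (1.07), named after their values were seen, were also higher. Regulators of G-protein signalling divided too, with Rgs1 lower by 1.71 and Rgs2 and Rgs10 higher by 1.27 and 2.45.

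Interferon-stimulated genes showed no common direction. Of 30 tested, 3 were higher and 4 lower, and the median was -0.04. Both counts were near the shares over all genes, 6.3% higher and 11.4% lower. Rtp4 read -2.58, -2.11 and -2.0 against -0.11, -0.21 and 0.39, Iigp1, an interferon-induced GTPase, rose by 1.31, and Gbp6 was at least 5.10-fold higher. Oasl2 fell by 2.32 and Mx2 by 1.47, each above background on 2 EBF1ΔC arrays, Oas3 was at least 2.02-fold lower, and Oas2 (-1.17) was named after its value was seen. With the authors' values 1 gene of the list was called higher and with normexp 2, and 0 were lower by limma in either, the call of Gbp6 being lost at 0.66 and 0.80.

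The BCL2 family had 1 of 15 members tested higher and 1 lower, and by these counts it did not stand out from all genes. Bcl2l1, which encodes the anti-apoptotic protein BCL-XL, read 0.41, -0.11 and 0.09 in Mock cells and 1.77, 1.74 and 1.82 in EBF1ΔC cells, a difference of 1.65 (SE 0.13). Bcl2a1b, another anti-apoptotic member and one of several near-identical copies, read 0.29, 0.51 and 0.67 in Mock cells and was not well above background on any EBF1ΔC array, at least 58.1-fold lower. The other 13 family members tested were not called. Of 18 caspase and death-receptor genes, Casp1 (1.58) and Ripk3 (1.30) were higher, and Casp4 (-2.68), Birc3 (-1.27) and Casp9 (-1.06) were lower. Casp9 missed 2-fold without Mock replicate 2, at -0.99. Among 20 p53 target genes, Cdkn1a, the p21 cell-cycle inhibitor, rose from -0.24, -0.84 and -0.43 to 1.12, 1.04 and 1.25. Trp53inp1, Gadd45a and Gtse1 rose by 1.48, 1.49 and 1.24. Gadd45g fell from 6.00, 6.18 and 6.21 to 1.51, 1.65 and 1.53, and Pltp by 3.51.

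D-type cyclins moved in opposite directions. Ccnd3, the cyclin that pre-B cells need to proliferate, read 6.08, 5.66 and 5.78 against 8.0, 7.97 and 8.18, a difference of 2.21 (SE 0.12), while Ccnd2 fell from 4.73, 4.81 and 4.76 to 3.07, 3.34 and 3.30. Cdkn2c rose by 1.22 and Cdkn2b fell by 1.37. Of 32 DNA replication genes, 3 were higher and 0 lower by limma at the 2-fold limit, with a median of 0.41. At an unadjusted p under 0.05 by limma, 24 were higher and 1 lower, against 4732 higher and 3344 lower of all 11902 genes. The 3 higher genes, a count near the 6.3% over all genes, were Rfc3 and Prim2 (1.44 each) and Tyms (1.05). Another Tyms probe gave -2.58, so that the mean over its probes was -0.14, and the call was lost without EBF1ΔC replicate 2, at 0.98, or Mock replicate 3. Of 30 mitotic genes 1, the spindle-checkpoint kinase Ttk (1.19), was called, and the 30 differences lay between 0.14 and 1.19 with a median of 0.56. At an unadjusted p under 0.05 by limma, 26 of the 30 were higher and 0 lower. Under median scaling 14 replication and 20 mitotic genes were called higher. MYC and ribosome genes had 1 of 25 higher (Mxd3, 1.28) and 1 lower (Mxd1, -1.91).

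Genes of cholesterol and fatty acid synthesis were lower in large number. Of 30 tested, 17 were lower and 0 higher by limma at the 2-fold limit (2 higher at an unadjusted p under 0.05), with a median of -1.11. Scd2, a fatty acid desaturase, read 6.15, 6.17 and 6.01 on the Mock arrays and 3.66, 3.71 and 3.77 on the EBF1ΔC arrays. Mvd and Idi1 of the mevalonate pathway fell by 2.05 and 1.62, and Lss, which closes the sterol ring, fell by 2.07. Abcg1, a sterol exporter that rises when sterols are plentiful, fell from 4.45, 4.45 and 4.53 to 0.76, 1.30 and 0.50, and Mylip, which degrades the LDL receptor, fell by 1.66. Both are among the 17. The same count of 17 was found with normexp and with the authors' values, and 19 with quantile scaling, whereas median scaling left 7.

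Glycolytic and hypoxia genes had 6 of 29 lower and 2 higher. Slc2a3, the glucose transporter GLUT3, read 1.03, 0.84 and 0.71 against -4.61, -4.89 and -6.22, the latter above background on 2 arrays. Aldoc fell by 1.86 and Adm by 1.41, Hk3 and Eno2 were at least 1.84-fold and 1.78-fold lower, and Vegfa rose by 1.44. With the authors' values 2 were lower and 1 higher. Genes of the amino acid stress response, through which ATF4 raises amino acid supply, were higher in 9 of 27, with a median of 0.86, and lower in 0 by limma (0 at an unadjusted p under 0.05). Trib3, a pseudokinase, read 0.43, 0.44 and 0.42 against 3.58, 3.22 and 3.44, and Atf5 read 1.30, 1.40 and 1.31 against 4.32, 4.29 and 4.28. The transporter subunits Slc7a5 and Slc3a2 rose by 1.45 and 1.16, Psph by 1.24 and the synthetase gene Nars by 1.19. All 27 members lay above 0, the lowest at 0.02. The authors' values called 5 higher. Of 33 chromatin genes, 1 was higher, Tet2 (2.91), which was above background on 1 Mock array, and 1 was lower, the deacetylase gene Hdac9 (-2.02). The Tet2 call was lost with normexp, at 0.61, and with the authors' values, at 0.53, and its difference was 3.94 without Mock replicate 2. Median scaling gave 14 higher chromatin genes, and normexp and the authors' values 0 higher by limma.

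**Figure D4:**
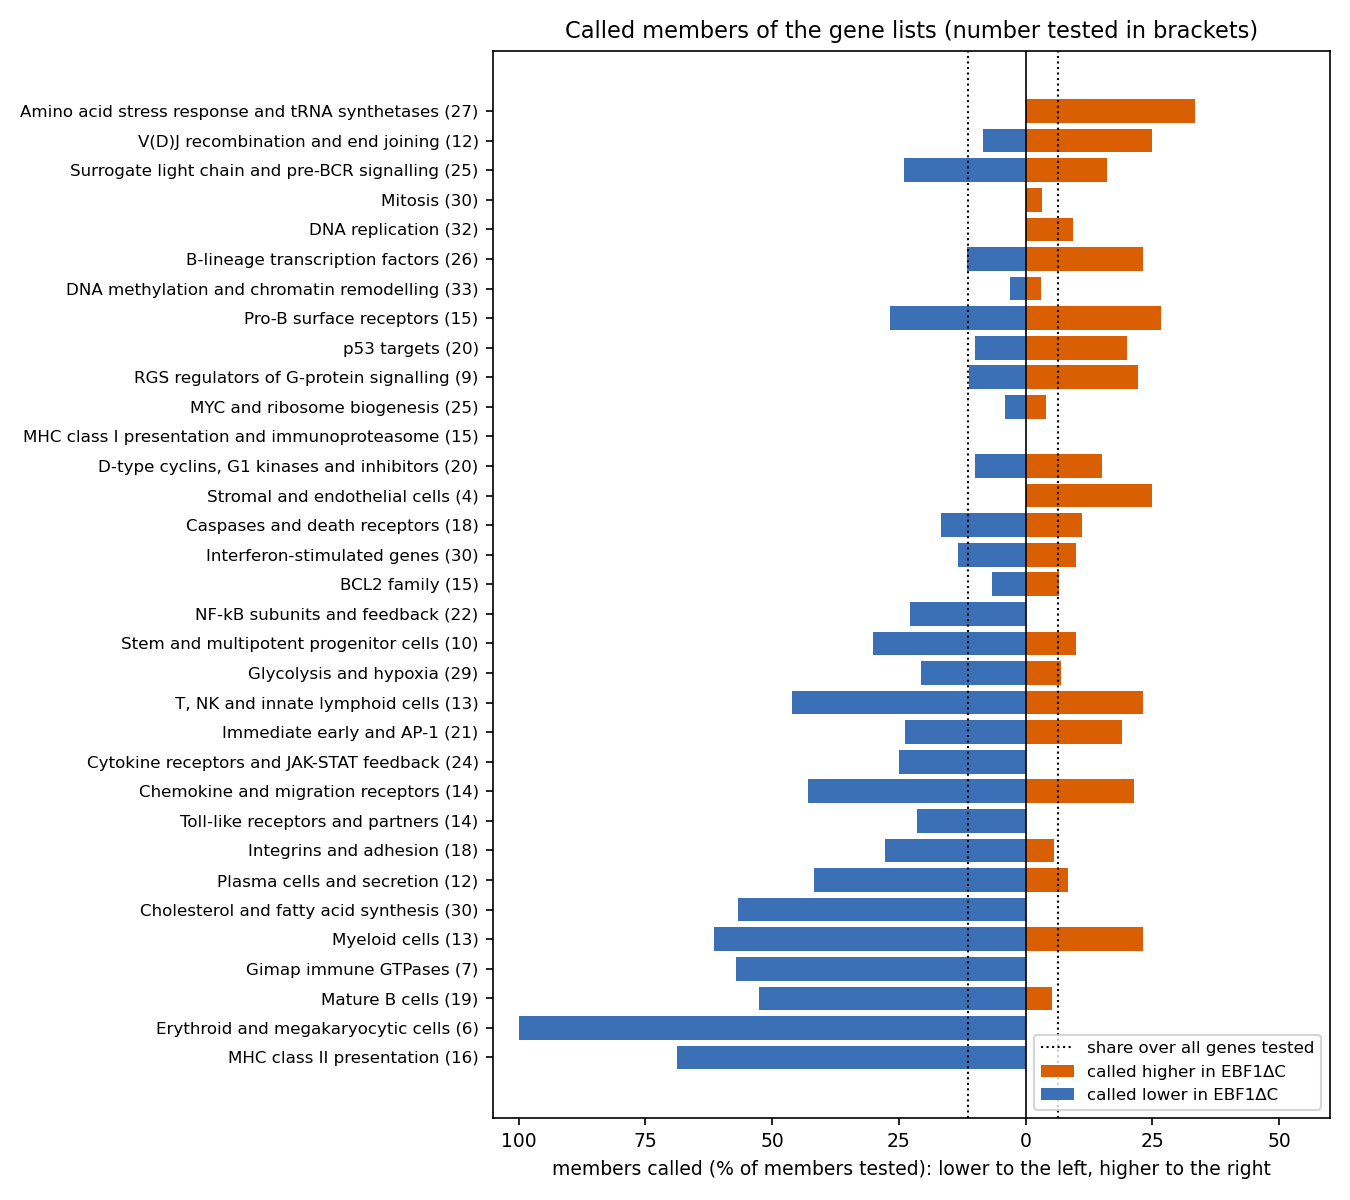
Share of tested members of 33 gene lists called higher (orange, to the right) or lower (blue, to the left) in EBF1ΔC than in Mock cells, as percent of the members tested, whose number stands in brackets. Lists are ordered by their median difference, and the dotted lines mark the shares over all genes, 6.3% higher and 11.4% lower. The amino acid stress list is at the top, and the MHC class II list, with 11 of 16 members lower, is at the bottom.

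The largest changes outside these lists concerned genes of diverse function. Among genes measured on every array of both groups, Nyx, which encodes the retinal protein nyctalopin, had the largest rise, from -3.48, -3.21 and -2.84 to 2.86, 3.04 and 3.28 (difference 6.24, SE 0.41). Rnf130, a ubiquitin ligase gene, rose by 5.76, Cnksr3 by 4.94, Tmed3 by 4.44 and Igf1, the insulin-like growth factor, by 4.34. Adgrg1, an adhesion G-protein-coupled receptor, read -1.38, -1.70 and -1.75 against 2.58, 2.40 and 2.23. Pcp4, a calmodulin regulator, fell from 3.66, 3.66 and 3.42 to -2.88, -2.91 and -4.01. Serpinb6b fell by 5.73, Tgfb3 by 5.65, Lat2, an adaptor of B-cell and mast-cell receptors, by 5.64, and Crisp3 by 5.47.

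Some genes were measured in only 1 of the groups. Prodh, which degrades proline, was at least 49.8-fold higher in EBF1ΔC cells, reading 0.02, 0.39 and 0.23 there and not well above background on any Mock array. Tusc1, the calmodulin kinase gene Camk4, Adgra3 and Maoa were at least 49.7-fold, 37.1-fold, 25.2-fold and 21.6-fold higher. In the other direction, Cd5l, a secreted macrophage protein, read 1.35, 1.22 and 1.05 in Mock cells and was at least 97.1-fold lower. Serpina3g was at least 38.6-fold lower.

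EBF1ΔC cells were then set directly against EBF1wt cells, which went through the same transduction, sort and culture. The call was made for 329 genes (2.76%), with EBF1ΔC cells above EBF1wt cells in 170 (1.43%) and below them in 159 (1.34%). Both groups were compared with the same Mock arrays, so their changes from Mock are only given side by side. For some named genes the direct difference was small: Vpreb1 differed by 0.09, Il7r by 0.08, Foxo1 by 0.05 and Hbb-bt by -0.23. These 4 are examples chosen after their values were seen. Ebf1 itself differed by 0.74. Igll1 was lower in EBF1ΔC than in EBF1wt cells, by 1.08 (SE 0.12, adjusted p = 0.0016), with EBF1wt arrays at 6.44, 6.41 and 6.34. With the mean of its probes the difference was -0.79 and no longer past 2-fold.

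Among genes called against Mock and measured on all 9 arrays, 6 were the furthest below EBF1wt. Asb2, a subunit of ubiquitin ligases, read 2.59, 3.26 and 2.68 in EBF1wt and -1.72, -2.15 and -3.72 in EBF1ΔC cells, with Mock between them at 1.92, 1.86 and 1.81 (difference -5.37, SE 0.45, adjusted p = 0.0004). Ly6d read 4.64, 3.69 and 4.76 in EBF1wt cells, above Mock, and lay below Mock in EBF1ΔC cells (difference -4.24). Slpi, a protease inhibitor, showed the same order, with 4.89, 5.73 and 5.07 against 1.16, 1.84 and 0.26. For these 3 genes EBF1wt lay above Mock and EBF1ΔC below it.

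Cd72 read 1.23, 1.54 and 1.15 in EBF1wt cells, within 0.15 of Mock on average, and was lower in EBF1ΔC than in EBF1wt cells by 3.74 (SE 0.17, adjusted p = 1.6e-05). Col26a1, a collagen gene, and Ttll11 were raised above Mock in both, but less in EBF1ΔC cells. Col26a1 read 2.33, 2.50 and 2.32 in EBF1wt cells and -1.56, -1.76 and -2.21 in EBF1ΔC cells, and its rise over Mock of 1.01 fell below 2-fold without EBF1ΔC replicate 1 (0.87), EBF1ΔC replicate 2 (0.97) or Mock replicate 3 (0.90). Ttll11, a tubulin-modifying enzyme gene, was lower than in EBF1wt cells by 3.59.

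By the same rule 6 genes were the furthest above EBF1wt, and others are given beside them. H2-Aa read -2.07, -2.10 and -2.24 in EBF1wt cells, so that it lay 2.68 higher in EBF1ΔC cells (SE 0.17, adjusted p = 0.00011), and both lay below Mock. The same order held for H2-Eb1 (2.37) and Ciita (2.24), which differed less than the other genes of this paragraph. The Ciita difference fell below 2-fold with normexp (0.83) and with the authors' values (0.75). S100a4, a calcium-binding protein gene, lay 2.50 above EBF1wt and also between EBF1wt and Mock. Iigp1 differed by 2.60 and Rgs10 by 2.69. Lyz2 read 1.41, -1.20 and 1.24 in EBF1wt cells, with a wide spread, and differed by 3.10 (SE 0.63, adjusted p = 0.021), as did Lyz1 by 3.0. The calls of both lysozyme genes were lost without EBF1ΔC replicate 1 or 2 and, as for Rgs10, with only the 2 groups in the fit or with no filter on dim probes.

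**Figure D5:**
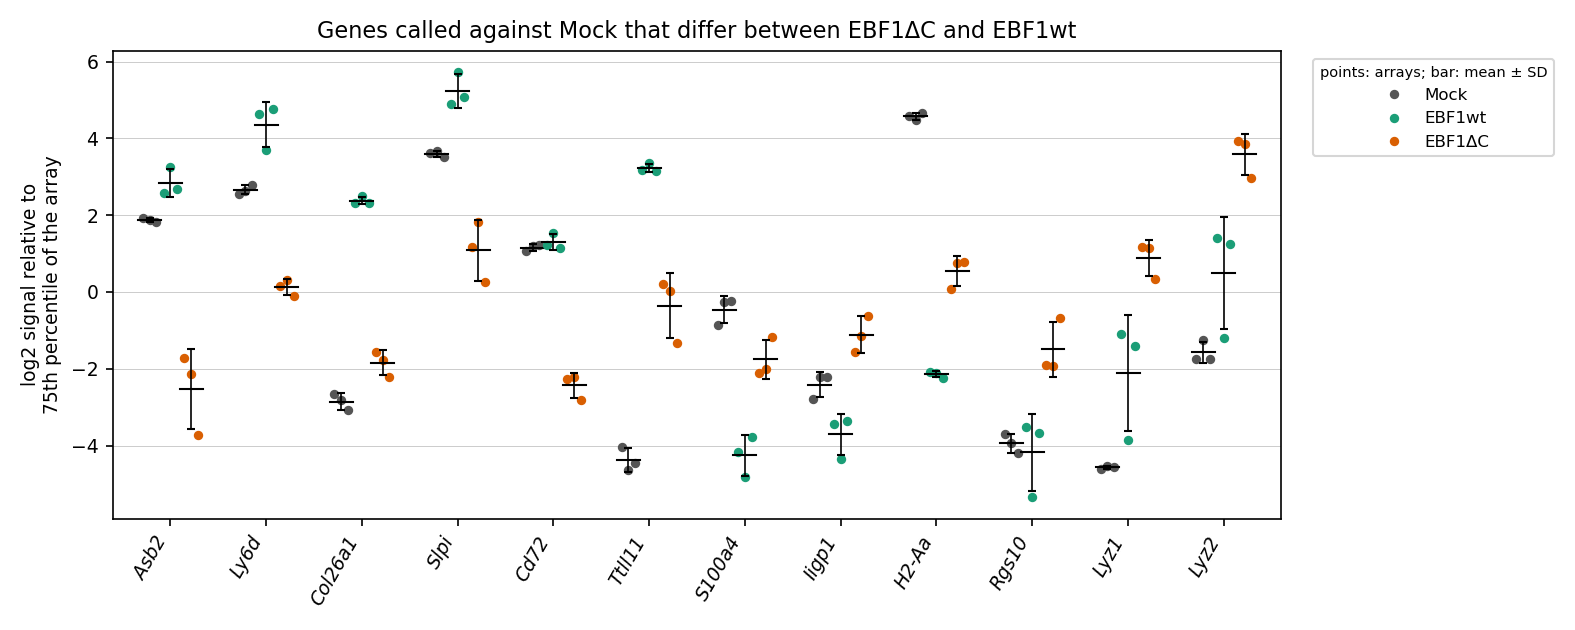
Log2 signal of the 6 genes each way with the largest differences between EBF1ΔC and EBF1wt cells, among genes called against Mock and measured on all 9 arrays, on the 3 Mock (grey), 3 EBF1wt (green) and 3 EBF1ΔC (orange) arrays, relative to the 75th percentile of the array. Points are arrays, and the bars give mean ± SD. Asb2, Ly6d and Slpi are lower in EBF1ΔC than in Mock cells and higher in EBF1wt cells, while H2-Aa in EBF1ΔC cells lies between EBF1wt and Mock.

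Other listed genes also differed between the EBF1 forms. Il4ra lay 1.40 higher, Sparc 4.26 higher and Igf1 4.13 higher than in EBF1wt cells, while Bhlha15 lay 3.32 lower. With the authors' values these differences shrank to 0.85, 1.01, 2.18 and -1.56. The Il4ra call was lost there and with normexp, at 0.89. Rag1 lay 2.14 higher (SE 0.47, adjusted p = 0.028), and its call was lost when each EBF1ΔC array was left out in turn, with only the 2 groups in the fit and with no filter on dim probes. EBF1wt replicate 2, at -2.23, was below the other EBF1wt arrays for Rag1. It also lay below them for Lyz1, Lyz2, Igf1, Rgs10, Iigp1 and Ly6d, and above them for Asb2 and Slpi. Without this array the differences between EBF1ΔC and EBF1wt were 3.22 for Igf1, 2.13 for Lyz1 and 2.26 for Lyz2. Slides 4 and 5 each held 1 EBF1ΔC and 1 EBF1wt array, and the EBF1wt array of slide 4 was replicate 2. Within slides 4 and 5 the differences were -6.98 and -4.40 for Asb2, -3.80 and -4.61 for Ly6d, -4.35 and -3.43 for Cd72, 2.88 and 2.32 for H2-Aa, and 3.79 and 1.46 for Rag1. With slide as a random block 333 genes were called.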

How the data were processed

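In all, 9 samples were hybridised to 1-colour Agilent arrays labelled with Cy3, 3 for each of 3 groups, and groups were taken from the sample titles. The deposited files hold processed spot intensity on a linear scale, read with Feature Extraction 10.5.1.1 per the file headers, while the submitters' processing notes name version 9.1. The series table deposited by the authors holds normalized log2 values and was used only as an alternative. Each of its columns had a median of 6.74 and correlated at 0.999 with normexp-corrected, quantile-normalized scanner values of its own array, which bears on its scale and direction, while its exact steps and centring are not given in the sources used here.

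From the intensity of 41174 probes, log2 values minus the 75th percentile of each array were taken, and control spots and outlier spots were left out. Of these probes, 22357 passed the filter, which asked for a signal flagged well above background on each of the 3 arrays of some group, and 19890 of those carried a gene name from RefSeq tables or the files. The probe with the highest mean stood for its gene, giving 11902 genes. In 39 of 5355 genes with several probes, probes were called in opposite directions. Linear models were fitted with limma 3.58.1 in R 4.3.3 over all 9 arrays, with 6 residual degrees of freedom. A call required 2-fold or more and, after Benjamini-Hochberg adjustment, p under 0.05. The fit was tested on simulated data. Array number limits the precision.

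The gene lists and the members were chosen with earlier results of these data known. Genes were named by rule: a fixed list of 30 genes, of which 27 were tested; the 12 highest and 12 lowest called genes measured on every array, with groups that did not overlap; the 6 largest bounds each way; the 6 or fewer called members of each list with the largest change, or the 2 members of highest signal where none was called; and the 6 called genes each way that differed most from EBF1wt. The rule gave 194 genes, some of which are not reported here.

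The slides numbered 6 and the scan days 2. Alternatives were other scalings, normexp background correction with offset 50, the authors' values, other filters, the mean of probes, blocks for slide and replicate, and each array left out.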

Additional observations from a re-analysis of the deposited data

How the results depend on the processing

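The counts of genes called between EBF1ΔC and Mock cells moved with the scaling and background correction. Median scaling gave 3063 higher and 810 lower, normexp with quantile scaling 398 and 637, and the authors' values 393 and 616. Of the 2110 calls, 1560, 968 and 938 were kept in these 3 settings, and 1723 with quantile scaling. With genes well above background in both groups, 877 were lower, and with the adjusted p alone 4506 were higher and 3138 lower. Leaving out each array gave 709 to 796 higher and 1258 to 1379 lower. Between EBF1ΔC and EBF1wt, 129 were called with normexp, 125 with the authors' values, 207 with only the 2 groups in the fit, 1117 with the adjusted p alone and 181 at an adjusted p under 0.01, and 245 to 364 without single arrays. The cause was not tested.

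Some values changed sign. With the mean of probes Ebf1 was -0.76 and Tyms -0.14. With median scaling Pou2af1 was 0.54 and Spib 0.11. Without single arrays Pou2af1 lay between -0.073 and 0.047 and Pax5 between -0.023 and 0.21. H2-D1 was -0.19 with normexp, -0.16 with quantile scaling and -0.11 with the authors' values, and H2-K1 was -0.024 with quantile scaling. Between EBF1ΔC and EBF1wt, Ltb4r1 was -0.32 and Pltp -0.12 with the authors' values.

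Replicate numbers are shared by the groups. The deviations from the group means of Mock and EBF1ΔC arrays with the same number correlated at 0.11, 0.02 and 0.11. Those of EBF1wt and EBF1ΔC arrays correlated at -0.18, 0.07 and -0.10. These values show no clear pairing, but with 3 arrays a group they cannot exclude shared cultures. With the replicate block 750 genes were higher and 1344 lower, 2088 of the calls being kept, and 283 were called between EBF1ΔC and EBF1wt. Under this block the calls of Rag1, Dntt, Hbb-y and Ltb4r1 between EBF1ΔC and EBF1wt were lost. Signal over background limits the dim genes: bounds are given for genes above background on no array of a group, and values for those above it on some arrays. The bounds do not carry over to normexp or to the authors' values, where these genes differed less.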

Other observations

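Probes without a gene name were called more often than named ones. Of 2467 such probes tested between EBF1ΔC and Mock cells, 105 were higher and 924 lower, or 41.7%, against 1246 higher and 2713 lower of 19890 named probes, or 19.9%. Of 6750 unnamed probes, 2401 were well above background on all 3 Mock arrays, 1900 on all EBF1ΔC arrays and 1762 on all EBF1wt arrays. Probes above background in Mock cells alone also entered the test. How much of the contrast with named probes comes from this filter was not tested.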
